A study of Homo sapiens with 2 samples.

Results

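The genes of secretory and endosomal membrane traffic were examined in HepG2 cells that had received a locked nucleic acid (LNA) against TUC338 or a control LNA. Members were taken by symbol, as every gene whose single listed symbol began with COP followed by A, B, E, G or Z, SEC, COG or SNAP followed by a digit, or TRAPPC, GOLG, VPS, SNX, EXOC, STX, VAMP, TMED, AP1, AP2, AP3, AP4 or CLT. The rule used no measured value and found 63 genes of the 2792 with a symbol in the table, covered by 1196 of 42575 probe sets. HepG2 is a human hepatoma cell line, and TUC338 is a noncoding transcript with an ultraconserved element. The 2 groups were TUC338 knockdown and Control, each HepG2 cells grown on collagen-coated plates and each given an LNA, with 1 array per group. No replicate culture was measured, so every difference below compares 2 arrays and no p-value could be given. The series text states that the knockdown was checked by experiment. Of the hepatocyte genes looked up, ALB, APOA2, APOB, APOH, FGG and TF were in the table, and FGG had the lowest log2 intensity of these, 10.53 in the knockdown and 9.98 in the control. Of the fibroblast markers, COL1A1 read 7.89 in the knockdown and 8.51 in the control, and PDGFRB 8.17 in the knockdown and 7.66 in the control. No leukocyte or endothelial marker that was looked up is in the table.

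Proteins for secretion enter the endoplasmic reticulum through the SEC61 translocon and leave it in vesicles coated by COPII, while the COPI coat returns material from the Golgi. Tethers such as the golgins, the COG complex and TRAPP catch incoming vesicles, and SNARE proteins then fuse the membranes. Clathrin with its adaptor complexes forms vesicles at the plasma membrane, the trans-Golgi and endosomes, and VPS and SNX proteins sort cargo between endosomes, the lysosome and the Golgi. Hepatocytes and hepatoma cells secrete plasma proteins and lipoproteins by this route.

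The platform is an exon array, on which each probe set reads about 1 exon and most genes have several readings. Members had 4 to 87 probe sets each, with a median of 16. The value of a gene is its log2 intensity in the knockdown less that in the control, averaged over its probe sets. The knockdown array was the brighter of the 2: the median intensity over probe sets was 507 (knockdown) and 422 (control), and the median gene had a difference of 0.28 (log2). Differences are therefore given relative to the median gene, with 0.28 subtracted, unless called deposited. Where all genes are summarized, filtered or normalized in another way, such as by the brightest probe set, the median gene of that setting is subtracted instead. An SD after a difference is over the probe sets of that gene. It shows how far exons agree between the same 2 arrays and is not an error between cultures. No level filter was applied, so all 63 members entered.

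None of the 63 members in the table reached a 1.5-fold difference from the median gene in either direction. The table does not hold the whole traffic machinery: of 161 further traffic symbols looked up, 44 were in it. Genes absent from it are not covered by this count. The counts were 0 of 63 higher and 0 of 63 lower, beside a background of 2.26% higher and 3.9% lower over all 2792 genes. The members ran between -0.37 for EXOC7, a subunit of the exocyst, and 0.48 for SNX13, an endosomal sorting nexin. At 1.3-fold, 3 members were higher and 0 lower, where 7.99% of all genes were higher and 11.4% lower. The 3 were SNX13, the clathrin-adaptor subunit AP3S2 and the SNARE-binding protein STXBP6. The median member lay at 0.03 above the median gene, and 33 of 63 lay above it, beside 50.0% of all genes. In deposited values 57 of 63 were above 0, beside 83.0% of all genes, with a median of 0.32 for the members and 0.28 for all genes. Differences spread by an SD of 0.22 over the 63 members and 0.31 over the 2729 other genes. Members were less spread at each number of probe sets: the SDs were 0.23 for members and 0.31 for all genes with 4 to 9 probe sets, 0.20 and 0.31 with 10 to 19, and 0.22 and 0.29 with 20 or more. No test of this difference in spread was made.

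**Figure D1:**
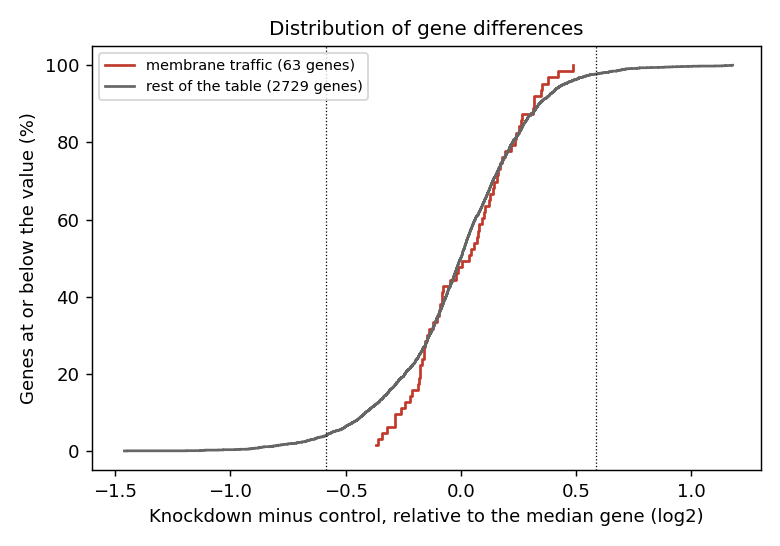
Cumulative share of genes (percent, y axis) at or below each difference of knockdown minus control relative to the median gene (log2, x axis), for the 63 membrane traffic genes and the 2729 other genes of the table. Dotted lines mark 1.5-fold, and all members lie between them, from -0.37 to 0.48.

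Every probe set lay above the median gene for 5 of the 63 members, beside 7.66% of all genes, and every probe set lay below it for 1 member, beside 9.78% of all genes. The 5 were SNX13, AP3S2, AP4B1, STX12 and STXBP6, and the 1 was TMED2. Of the 1196 probe sets of the members, 577 (48.2%) lay above the median gene, and of all 42575 probe sets 20384 (47.9%) did. The members were thus split about the median gene, by genes as by probe sets. Medians by step ran between -0.15 for the COPI coat and 0.16 for the SNAREs.

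**Figure D2:**
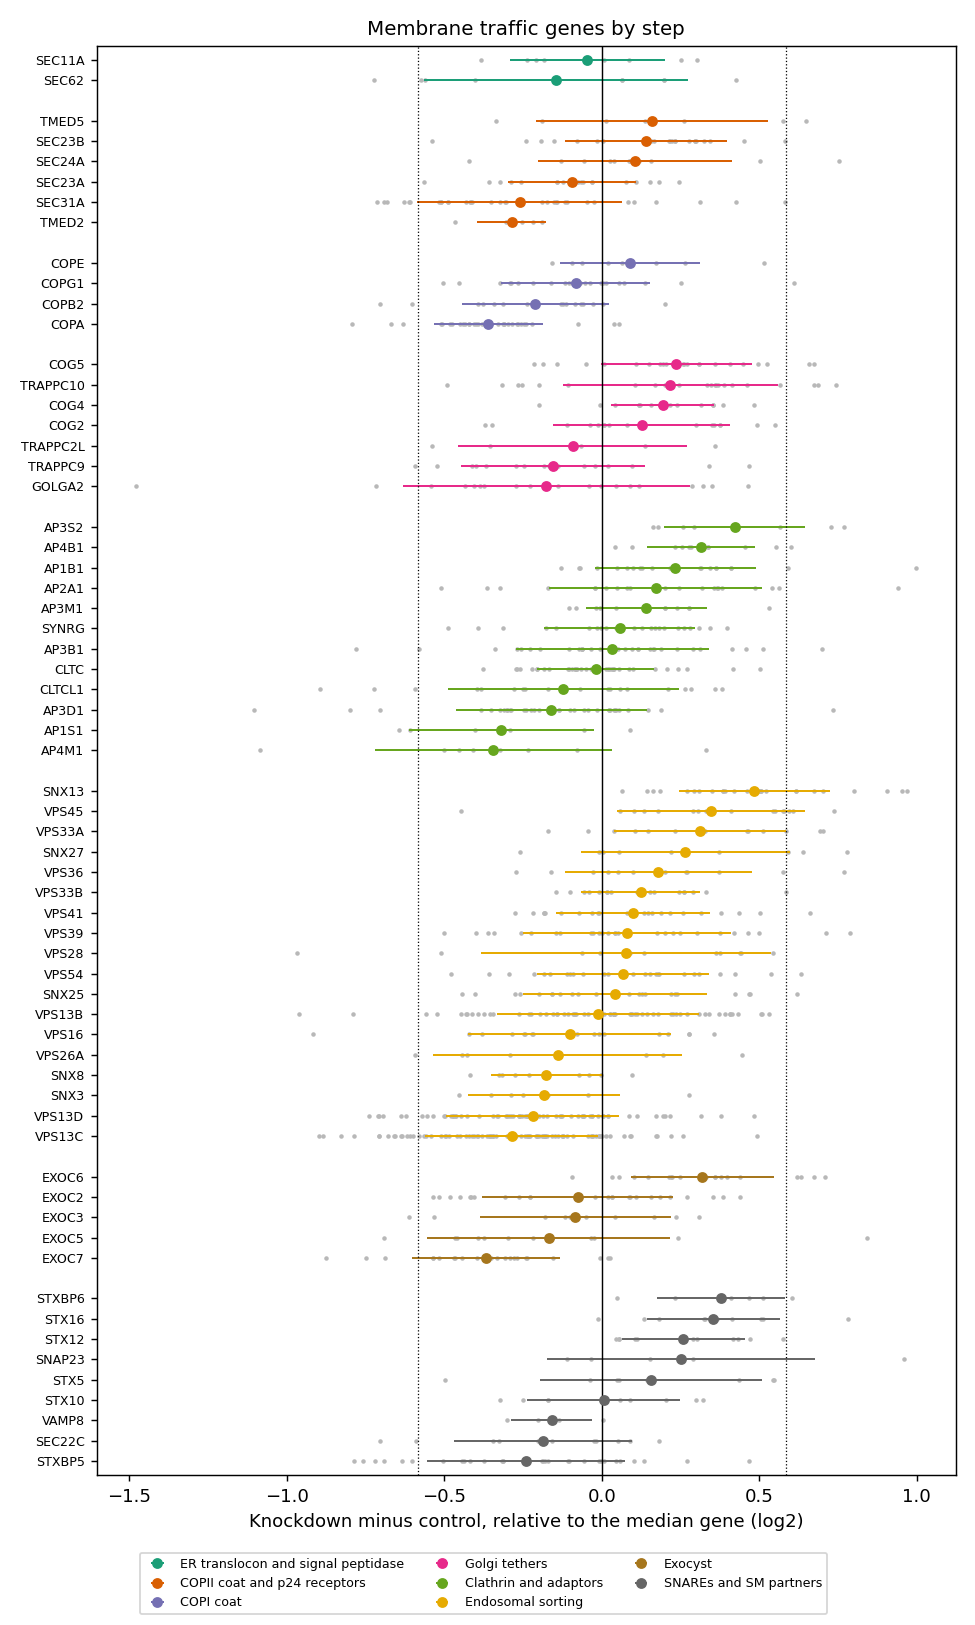
All 63 membrane traffic genes, grouped by step of the route. Coloured points are gene means of knockdown minus control relative to the median gene (log2, x axis), bars are the SD over the probe sets of the gene, grey points are single probe sets, and dotted lines mark 1.5-fold. No gene mean crosses a dotted line, and within most steps genes lie on both sides of 0.

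The entry to the secretory route was represented by 2 genes. SEC62, a translocon partner, had a mean log2 intensity of 8.66 in the knockdown and 8.52 in the control, or -0.15 ± 0.42 over 9 probe sets relative to the median gene. Its probe sets disagreed, with 5 above the median gene and 4 below. SEC11A, a catalytic subunit of the signal peptidase, lay at -0.05 ± 0.25 over 8 probe sets.

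COPII genes, which build the coat of vesicles leaving the endoplasmic reticulum, and the p24 cargo receptors had a median of 0.0061 over 6 genes, with 3 above and 3 below the median gene. TMED2, a p24 receptor, read 11.56 in the knockdown and 11.56 in the control. With the 2 arrays level in deposited values, it lay at -0.29 ± 0.11 relative to the median gene, below it at all 5 probe sets. SEC31A, of the outer coat, read 10.37 in the knockdown and 10.35 in the control and lay at -0.26 ± 0.33, with 28 of 34 probe sets lower than the median gene. The other p24 receptor, TMED5, was on the opposite side, with 10.41 in the knockdown and 9.96 in the control (0.16 ± 0.37 over 7 probe sets). The inner-coat paralogs SEC23A and SEC23B stood at -0.09 ± 0.20 over 19 probe sets and 0.14 ± 0.26 over 22. SEC24A, the cargo-binding partner of SEC23, stood at 0.11 ± 0.31 over 11. Each of these means except that of TMED2 was smaller than its own SD over probe sets.

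The COPI coat, which carries material back from the Golgi, had a median of -0.15 over 4 genes, with 3 below the median gene. This was the lowest of the 8 step medians, but not in every setting. With the brightest probe set the translocon step (-0.31) and the exocyst (-0.18) were lower than COPI (-0.10). With dim probe sets removed the exocyst (-0.22) and the translocon step (-0.15) were lower than COPI (-0.14). With genes at or above the median level COPI stood at -0.16 and the exocyst at -0.18, the latter from 1 gene, EXOC5. COPA, the alpha subunit, read 10.99 in the knockdown and 11.07 in the control. This is -0.08 in deposited values and -0.36 ± 0.17 relative to the median gene, with 31 of 33 probe sets lower. COPB2, the beta-prime subunit, which pairs with COPA in the coat, read 10.27 in the knockdown and 10.20 in the control, or -0.21 ± 0.23, with 14 of 16 probe sets lower. COPG1, the gamma subunit, listed under its older symbol COPG, lay at -0.08 ± 0.24 over 23 probe sets and COPE, the epsilon subunit, at 0.09 ± 0.22 over 8. In all, 16 of the 80 COPI probe sets lay above the median gene, the lowest share of any step. In deposited values COPA alone of the 4 was lower on the knockdown array, so the position of the COPI genes is one relative to an offset of 0.28.

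Promoter sequence was examined for elements of the endoplasmic reticulum stress response, because coat and translocon genes are known targets of that response. RefSeq windows of 250 bases before to 50 after each start (GRCh38.p14) were matched for 55 of the 63 members. Both strands were searched for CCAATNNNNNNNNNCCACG and ATTGGNCCACG (the stress element and its short form), TGACGTGG (the unfolded protein response element), TGACGTCA (the cyclic AMP response element, which shares its first bases with the preceding motif) and CACGTG (an E-box core). TGACGTGG was present in 6 of 55 members (10.9%), in 39 of the 2372 matched genes of the array table (1.64%) and in 253 of all 27305 genes with a window (0.927%). The 6 were COPA, COPB2, SEC23A, SEC24A, SEC62 and STX5, all genes of the early secretory route. TGACGTCA was present in STX12 alone, 1.82% of members beside 4.3% of the genes of the table and 2.25% of all genes. CACGTG was present in 7 members (12.7%), beside 13.9% of the genes of the table and 8.77% of all genes. The stress element was in 0 of 55 members and 0.0916% of all genes, and its short form in 0 of 55 and 0.0696%. The stretches around the TGACGTGG and TGACGTCA matches are shown 5′ to 3′ on the strand of the gene. The 6 genes listed first share TGACGTGG, and STX12, listed last, has TGACGTCA instead. Capitals mark the match, which reads CCACGTCA where it lies on the other strand.
COPA: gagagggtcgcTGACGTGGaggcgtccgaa
COPB2, after the start: tcccggaagttCCACGTCAgtcagtctgac
COPB2, upstream: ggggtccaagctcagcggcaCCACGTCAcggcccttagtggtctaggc
SEC23A: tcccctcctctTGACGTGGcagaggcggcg
SEC24A: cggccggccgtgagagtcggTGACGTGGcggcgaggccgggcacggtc
SEC62: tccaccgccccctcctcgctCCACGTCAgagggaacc
STX5: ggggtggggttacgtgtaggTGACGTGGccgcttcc
STX12: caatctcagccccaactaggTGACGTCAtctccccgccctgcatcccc

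These stretches lie at chr1:160343227-160343256 (minus strand) for COPA, chr3:139389632-139389661 and chr3:139389816-139389863 (minus) for COPB2, chr14:39103221-39103250 (minus) for SEC23A and chr5:134648586-134648633 (plus) for SEC24A. Those of SEC62, STX5 and STX12 lie at chr3:169966770-169966806 (plus), chr11:62832052-62832087 (minus) and chr1:27773005-27773052 (plus). The match of COPA begins 6 bases after the start. Those of COPB2, which has more than 1 listed start, begin 31 bases after one of them and at position -163 from it. That of SEC23A spans the start, and those of SEC24A, SEC62, STX5 and STX12 lie before it. The 6 genes with TGACGTGG did not share a direction: COPA, COPB2, SEC62 and SEC23A lay below the median gene and SEC24A and STX5 above it. Over the 39 genes of the table with this motif the median difference was -0.04, with 18 above the median gene. Of these 39, 3 were past 1.5-fold in either direction, beside 2.26% higher and 3.9% lower over all genes. A match is a description of the window and shows no binding.

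Golgi tethers had a median of 0.13 over 7 genes, with 4 above the median gene and 3 below. The 4 above included the whole measured part of the COG complex, the tether of vesicles moving within the Golgi. COG5 read 9.56 in the knockdown and 9.04 in the control (0.24 ± 0.24), with 20 of 24 probe sets above the median gene. COG4 read 9.42 in the knockdown and 8.95 in the control (0.19 ± 0.16), with 15 of 17 above, and COG2 stood at 0.13 ± 0.28 with 11 of 16 above. Subunits of TRAPP, a tether and exchange factor for Rab proteins, were spread: TRAPPC10 stood at 0.22 ± 0.34 over 23 probe sets, TRAPPC2L at -0.09 ± 0.36 over 5 and TRAPPC9 at -0.15 ± 0.29 over 16. A further subunit, TRAPPC11, falls outside the naming rule because the table lists it as C4orf41. It read 8.98 in the knockdown and 8.13 in the control, or 0.56 ± 0.28 with all 31 probe sets above the median gene, which is higher than any of the 63 members.

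GOLGA2, a matrix golgin of the cis-Golgi that binds incoming vesicles, had the probe set farthest from its own gene mean of all 1196. Over its 19 probe sets it read 8.68 in the knockdown and 8.57 in the control (-0.18 ± 0.46), with 12 below the median gene and 7 above. Its brightest probe set read 9.997 in the knockdown and 11.19 in the control, which is -1.48 relative to the median gene. The next lowest lay at -0.72 and the highest at 0.46. Without the brightest probe set, an alternative chosen after seeing the data, the mean was -0.10 over 18.

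Clathrin and its adaptors, which select cargo and build coated vesicles, had a median of 0.05 over 12 genes, with 7 above the median gene. The clathrin heavy chain CLTC read 11.33 in the knockdown and 11.06 in the control and lay at the median gene (-0.02 ± 0.19 over 37 probe sets). Its paralog CLTCL1 lay at -0.12 ± 0.37 over 19. The means of both heavy chains were smaller than their SDs over probe sets.

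Subunits of the same adaptor complex differed, but not every complex was more spread than genes at large. The SD over genes was 0.47 for AP4 (2 genes), 0.24 for AP3 (4) and 0.28 for AP1 with its partner SYNRG (3), beside 0.31 over all genes. The AP1 subunits AP1B1 and AP1S1 alone were 0.55 apart. AP4B1, the beta subunit of the AP4 complex of the trans-Golgi, read 8.18 in the knockdown and 7.58 in the control. It stood 0.32 ± 0.17 above the median gene, at all 11 probe sets. AP4M1, the mu subunit of the same complex, read 8.08 in the knockdown and 8.14 in the control and stood at -0.34 ± 0.38, with 8 of 9 probe sets below. The probe sets of AP4B1 ran between 0.04 and 0.60 and those of AP4M1 between -1.08 and 0.33, so the ranges overlapped through 1 probe set of AP4M1, its highest. The means of the 2 subunits were 0.66 apart. Both were dim, AP4B1 at the 9.3 and AP4M1 at the 17.5 percentile of gene intensity. Neither had a probe set left once dim probe sets were removed. In AP3, which routes cargo to lysosomes, AP3S2 read 9.58 in the knockdown and 8.88 in the control (0.42 ± 0.23, all 9 probe sets above). AP3M1 stood at 0.14 ± 0.19 over 11 probe sets, AP3B1 at 0.03 ± 0.31 over 31 and AP3D1 at -0.16 ± 0.30 over 36. In AP1, of the trans-Golgi and endosomes, AP1B1 stood at 0.23 ± 0.26 with 17 of 21 probe sets above the median gene and AP1S1 at -0.32 ± 0.29 with 5 of 6 below. The AP1 partner SYNRG, listed as AP1GBP1, stood at 0.06 ± 0.24 over 22, and AP2A1, of the plasma membrane adaptor, at 0.17 ± 0.34 over 22. The brightest probe set of AP1S1 was the 1 that lay above the median gene, at 0.09.

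**Figure D3:**
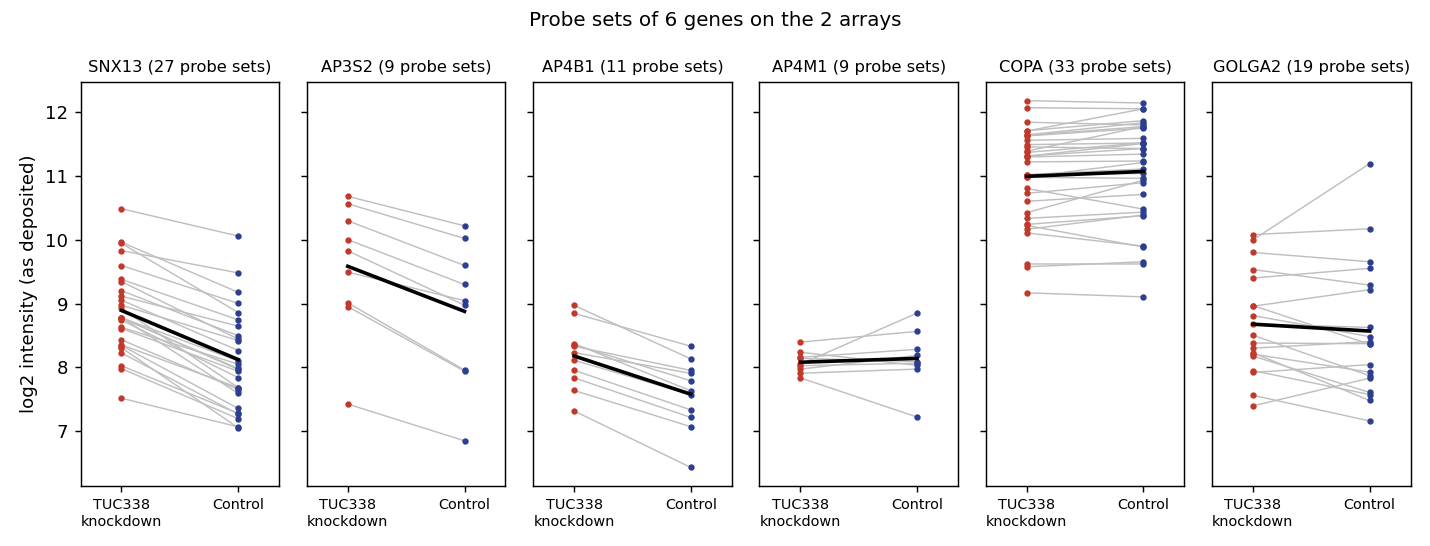
Deposited log2 intensity (y axis) of every probe set of SNX13, AP3S2, AP4B1, AP4M1, COPA and GOLGA2 on the TUC338 knockdown array (left) and the Control array (right). Thin lines join a probe set between the arrays and the thick line joins the gene means. All lines of SNX13, AP3S2 and AP4B1 are higher in the knockdown, the thick line of COPA is near level, and the brightest probe set of GOLGA2 is lower in the knockdown by more than any other shown.

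Endosomal sorting was the largest step, with 18 genes, a median of 0.07 and 11 above the median gene. SNX13, a sorting nexin with a regulator of G protein signalling domain, had the largest difference of all 63 members. It read 8.89 in the knockdown and 8.12 in the control, 0.77 in deposited values and 0.48 ± 0.24 relative to the median gene, or 1.4-fold. All 27 probe sets lay above the median gene, between 0.07 and 0.97. SNX13 was not the highest member in every setting: with the brightest probe set it stood at 0.23, below VPS45 at 0.69. With dim probe sets removed it stood at 0.39, below STXBP6 at 0.51. Other sorting nexins were not uniform: SNX27, a retromer partner in recycling, stood at 0.27 ± 0.33 with 8 of 10 probe sets above, and SNX25 at 0.04 ± 0.29 with 11 of 22. SNX3, which recruits retromer to endosomes, stood at -0.18 ± 0.24 with 6 of 7 below, and SNX8 at -0.18 ± 0.18 with 8 of 9 below. VPS26A, a subunit of retromer itself, stood at -0.14 ± 0.39 over 7.

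The highest of the VPS genes, VPS45, is an SM protein (a Sec1/Munc18 relative that guides SNARE pairing) of early endosomes. It read 8.54 in the knockdown and 7.91 in the control (0.35 ± 0.30), with 15 of 16 probe sets above the median gene. Of 5 measured subunits and paralogs of the HOPS and CORVET tethers, which fuse endosomes and lysosomes, 4 lay above the median gene. VPS33A, their SM subunit, read 9.07 in the knockdown and 8.47 in the control (0.31 ± 0.27, 12 of 14 above). Its paralog VPS33B stood at 0.12 ± 0.19, VPS41 at 0.10 ± 0.24, VPS39 at 0.08 ± 0.33 and VPS16 at -0.10 ± 0.32. The ESCRT subunits VPS36 and VPS28, which sort ubiquitinated cargo, stood at 0.18 ± 0.30 over 12 probe sets and 0.08 ± 0.46 over 11. VPS54, of the GARP tether at the trans-Golgi, stood at 0.07 ± 0.27 over 26.

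The VPS13 proteins, large lipid-transfer proteins at membrane contact sites, included the 2 lowest genes of the step. VPS13C read 8.39 in the knockdown and 8.39 in the control, which is -0.29 ± 0.27 relative to the median gene with 76 of 87 probe sets below it. VPS13D read 8.27 in the knockdown and 8.20 in the control, or -0.22 ± 0.27 with 53 of 66 below. VPS13B did not share this position, at -0.01 ± 0.32 with 34 of 62 probe sets above. In deposited values VPS13C was level between the arrays, at -0.0025, and VPS13D was higher in the knockdown, at 0.06.

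Exocyst subunits, which tether secretory vesicles at the plasma membrane, had a median of -0.08 over 5 genes, with 4 below the median gene and 1 above. EXOC7, the subunit that binds membrane lipid, read 8.59 in the knockdown and 8.67 in the control. It stood at -0.37 ± 0.23 with 20 of 22 probe sets below, the lowest of all 63 members. With the brightest probe set of each gene, relative to the median gene of that setting, EXOC7 stood at -0.19. GOLGA2 was then the lowest, at -1.39. EXOC6 was at the other end of the complex, with 8.31 in the knockdown and 7.71 in the control (0.32 ± 0.23, 18 of 19 probe sets above). EXOC5 stood at -0.17 ± 0.39 with 11 of 13 below, EXOC3 at -0.08 ± 0.30 over 10 and EXOC2 at -0.08 ± 0.30 over 26. The 2 ends of this single complex were thus 0.69 apart, and they differed in direction also in deposited values, with EXOC7 at -0.08 and EXOC6 at 0.60. The 5 subunits were not more spread than genes at large: their SD was 0.25, beside 0.31 over all genes.

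SNAREs and their partners, which carry out membrane fusion, had a median of 0.16 over 9 genes, with 6 above the median gene. This was the highest of the step medians, but with dim probe sets removed and with the brightest probe set the Golgi tethers were higher, at 0.21 and 0.07, against 0.07 and 0.06 for the SNAREs. All 4 syntaxins measured lay above it, at 32 of their 39 probe sets. STX16, of the trans-Golgi, read 9.54 in the knockdown and 8.90 in the control (0.35 ± 0.21, 10 of 11 probe sets above). STX12, of recycling endosomes, read 8.82 in the knockdown and 8.28 in the control (0.26 ± 0.19, all 11 above). STX5, of the endoplasmic reticulum to Golgi step, stood at 0.16 ± 0.35 over 8 and STX10 at 0.01 ± 0.24 over 9, so the last lay at the median gene. SNAP23, a plasma membrane SNARE, stood at 0.25 ± 0.43 over 5 probe sets, of which 3 lay above. The vesicle SNARE VAMP8 stood at -0.16 ± 0.13 over 4 and SEC22C at -0.19 ± 0.28 over 11. The syntaxin-binding genes lay apart: STXBP6 read 9.11 in the knockdown and 8.45 in the control (0.38 ± 0.20, all 6 above), and STXBP5, the tomosyn that holds SNAREs inactive, read 8.45 in the knockdown and 8.41 in the control (-0.24 ± 0.31, 24 of 31 below).

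Array brightness was set beside these positions. Over all genes, the median difference was -0.04, -0.0004, 0.0082, 0.04 and -0.02 in 5 equal classes of mean intensity from dimmest to brightest. The 12 members in the brightest class, with a log2 intensity of at least 9.62, had a median of -0.13, and the 12 in the class below it had 0.16. In the brightest class COPA, COPB2, COPG1, TMED2, SEC31A, SEC23A, CLTC, AP3D1, VAMP8 and SEC11A lay below the median gene. SEC23B and TMED5 lay above it. After removal of an intensity trend by loess, COPA lay at -0.31, and the part of brightness in the remainder was not tested.

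**Figure D4:**
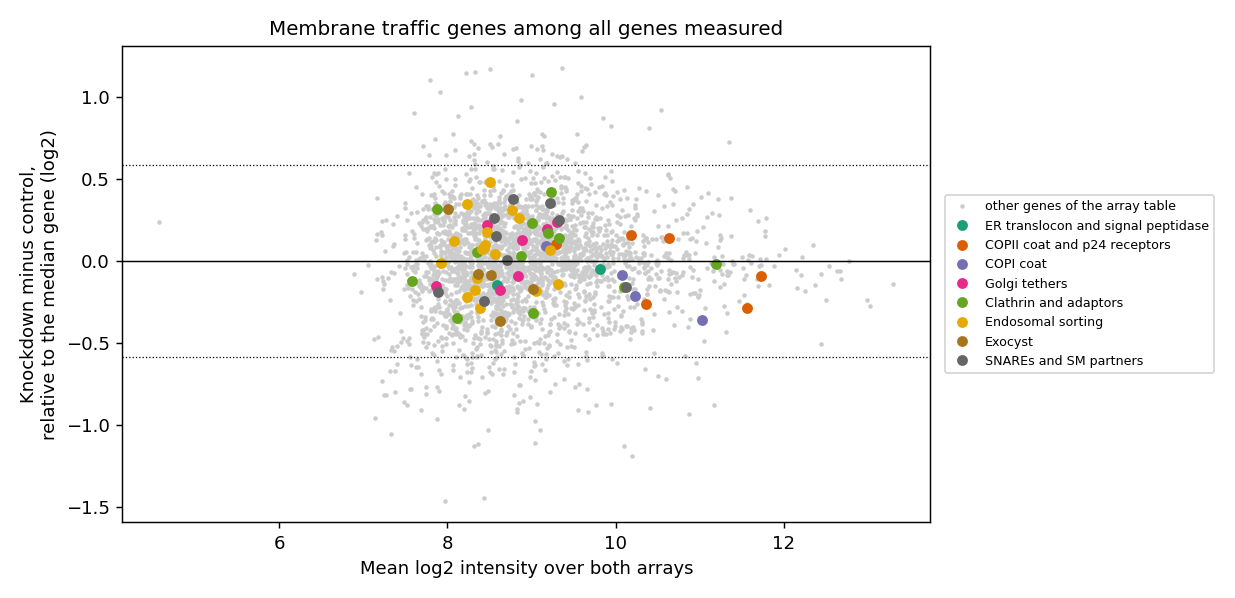
Mean log2 intensity over both arrays (x axis) against knockdown minus control relative to the median gene (log2, y axis), with the membrane traffic genes coloured by step and the 2729 other genes in grey. Dotted lines mark 1.5-fold. The members range from 7.58 to 11.73 in intensity and stay inside the dotted lines, with the 2 lowest COPI genes among the brighter members.

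A second list of traffic genes outside the naming rule (Rab and Arf regulators, cargo receptors, endocytic accessory proteins and ESCRT subunits) held 161 symbols, of which 44 were in the table. None of the 44 reached 1.5-fold either, 24 lay above the median gene, and their median was 0.01. PREB, the exchange factor that starts COPII assembly, was the highest and read 10.27 in the knockdown and 9.47 in the control (0.51 ± 0.22, all 11 probe sets above). ARFGEF2, an Arf exchange factor of the trans-Golgi, stood at 0.42 ± 0.29 with 43 of 44 probe sets above, and NAPG, a SNAP protein of SNARE recycling, at 0.39 ± 0.27 with all 11 above. HGS, the ESCRT component that first binds ubiquitinated receptors, was the lowest and read 9.07 in the knockdown and 9.24 in the control (-0.46 ± 0.21, all 15 probe sets below). EHD4, an endocytic recycling ATPase, stood at -0.42 ± 0.14 with all 6 below, and the recycling GTPase RAB11B at -0.41 ± 0.24 with all 4 below. At 1.3-fold 3 of the 44 were higher and 5 lower, near the background of 7.99% higher and 11.4% lower over all genes.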

How the data were processed

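The table that the authors deposited holds natural log intensities of 45200 probe sets in 2 columns, 1 per array. The normalization and the software were not given in the sources used here. A natural log was inferred from the values: their exponentials under 2000 gathered on 1 residue modulo 0.5 (1154 of 41367 values in the fullest bin on the knockdown array against a mean of 82.7, and 1167 of 42089 against 84.2 on the control array), which powers of 2 did not. They were divided by the natural log of 2. Probe sets with 1 symbol (42575) were assigned to genes, symbols were updated through RefSeq, and 1055 with several symbols and 1570 with none were left out. Gene values are means over probe sets, minus the median gene, counted at 1.5-fold. Cross-hybridization between paralogs was not examined. The number of arrays limits the precision. Genes named singly were those past 1.5-fold, the 3 highest and 3 lowest of each step (all in a step of 6 or fewer) and GOLGA2 and TRAPPC11, and other members are given for completeness. The members and lists were chosen with earlier results of these data known. The method was tested on simulated data with known gene differences and independent noise per probe set. These data held no variation between cultures, so they cannot show how often a gene passes a fold with 1 array per group. Python 3.11.15, numpy 2.4.6, pandas 2.3.3 and statsmodels 0.14.6 were used.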

Additional observations from a re-analysis of the deposited data

How the results depend on the processing

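Under quantile normalization, loess against intensity, the median over probe sets, genes with at least 4 probe sets, genes at or above the median level, probe sets at or above the median intensity, and a 2-fold limit, 0 members were counted in either direction. The level filter left 31 members and the probe set filter 59. With the brightest probe set 2 members were higher and 2 lower, and the median was -0.03. Of all 2792 genes 145 (5.19%) were higher and 194 (6.95%) lower in that setting. The cause was not tested. At 1.3-fold 3 members were higher, and 3 of the other pathway genes were higher and 5 lower. With dim probe sets removed 1 of 43 other pathway genes was lower, beside 137 of 2472 genes (5.54%). In deposited values, which keep the offset of 0.28 by construction, 8 members and 6 other pathway genes were higher, beside 363 of 2792 genes (13.0%), 90.5% of members lay above 0, and the median was 0.32 for members and 0.30 for the other pathway genes. The step medians in deposited values were 0.14 for COPI, 0.29 for COPII, 0.33 for clathrin, 0.19 for the translocon, 0.36 for endosomal sorting, 0.20 for the exocyst, 0.41 for Golgi tethers and 0.44 for SNAREs. In the other settings the median of endosomal sorting ran between -0.08 and 0.07 and that of COPII between -0.0083 and 0.05, so their sign was not stable, while COPI stayed between -0.16 and -0.10, the exocyst between -0.22 and -0.08, the translocon between -0.31 and -0.01, SNAREs between 0.06 and 0.24 and Golgi tethers between 0.05 and 0.21. The ranges of COPI, the exocyst and the translocon overlapped one another, as did those of SNAREs and Golgi tethers. The lowest and the highest step changed with the setting. Over all 63 members 17 changed sign in at least 1 of these settings, 14 of them with the brightest probe set. They were AP1S1, AP2A1, AP3B1, CLTC, COPE, EXOC3, SEC22C, SEC62, SNAP23, SNX27, STX10, TRAPPC2L, VPS13B, VPS33B, VPS36, VPS41 and VPS54. No paired analysis was possible because each group has 1 array. With 1 array per group a difference between cultures cannot be told apart from the treatment.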
